A study of Mus musculus with 6 samples.

Results

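The ion and metal carriers described here are the genes of 12 solute carrier families (Slc4, Slc8, Slc9, Slc12, Slc20, Slc24, Slc26, Slc30, Slc34, Slc39, Slc40 and Slc41), measured in surface ectoderm (SE) and neural ectoderm (NE) of the mouse embryo. They were chosen by the family number in the platform's gene symbol, and the red cell anion exchanger Slc4a1 was left out by that rule. The rule found 154 probes for 72 genes, of 45281 probes and 19057 genes with a single symbol on the array. They were set apart by what their families are known to carry. This gave 14 proton and bicarbonate carriers, 18 chloride carriers, 5 phosphate carriers, 23 zinc carriers and 12 carriers of calcium, iron or magnesium.

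Both tissues came from wild-type CD-1 embryos labelled E8.5. They were cut from the forebrain level with needles after digestion in pancreatin and trypsin, and the tissue of many embryos was pooled for each RNA sample. Each tissue had 3 samples, each hybridised to its own Illumina MouseWG-6 v2 array, and the methods call them independent biological replicates. The study set out to learn which pathways and transcription factors separate SE from NE fate during neurulation, the closing of the neural plate into a tube. In the study's heat map NE replicates 2 and 3 appear to be exchanged relative to the labels, which were kept. This does not touch a comparison of all SE with all NE arrays, but every value named by NE replicate 2 or 3 rests on the labels' numbering.

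Solute carriers are membrane proteins that move ions and small molecules, many of them by letting a second ion run down its gradient. Bicarbonate and proton carriers set the pH of the cell, chloride carriers coupled to sodium or potassium set its chloride content and volume, and the zinc carriers form a pair of opposed families, with Slc30 proteins moving zinc out of the cytosol and Slc39 proteins moving it in. In an epithelium such as the early ectoderm, the face of the cell on which each carrier sits decides the direction in which salt, acid and metal cross the sheet.

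The arrays agreed closely within a tissue. Between 18916 and 19402 probes per array gave a detection p under 0.05, and the correlation of log2 signals was 0.994 to 0.995 within a tissue and 0.955 to 0.962 between tissues. The tissue labels were checked against defining markers. Of 9 surface ectoderm markers 8 were tested and all 8 were higher in SE, while Epcam was not detected. Of 9 neural ectoderm markers 6 were tested and all 6 were higher in NE, while Sox1, Cdh2 and Pax6 were detected on too few arrays. Markers of cephalic mesenchyme (7 of 7 tested) and of primitive blood (5 of 5 tested) were higher in SE, so these lists moved with the comparison. The methods describe the tissue taken at the forebrain level as without cephalic mesenchyme. The endoderm and notochord lists moved towards NE through Foxa1 and Foxa2 (2 of 3 tested) and Shh (1 of 1) alone. Apoa1, also tested, was called for neither tissue. Afp was detected on no array, Ttr and Noto on 1 NE array each, and Sox17 and Cldn18 on 1 SE array each. The summed log2 level of the endoderm list was 8.22 to 8.58 in NE and 7.41 to 7.50 in SE, with Foxa1 and Foxa2 detected on no SE array. That of the notochord list was 8.22 to 8.89 in NE and 5.39 to 5.65 in SE, and Shh, which like Foxa2 also marks the ventral midline of the neural plate, had an NE signal at least 12.1-fold above that in SE. The part of such cells in the carriers' differences was not tested. In such bulk samples, fewer cells of a type and less RNA per cell cannot be told apart.

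A probe entered the test if 3 or more of the 6 arrays detected it, and a gene is given by its tested probe with the highest mean signal. Values are log2 of background-corrected, quantile-normalised signal, so 1 unit is a doubling. Each comparison is SE minus NE by limma with Benjamini-Hochberg adjustment over all 19590 tested probes, and a gene passed at an adjusted p under 0.05. With 3 pools per tissue, p-values measure the spread between these pools only.

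Stretches of promoter are shown first for 5 of the carriers that differed, because they hold the letters searched for among all promoters. RefSeq promoter windows (GRCm38.p6, 250 bases before to 50 after a gene start) were on file for 58 of the 72 genes, as 74 windows. They were searched on both strands for the binding letters of the surface ectoderm factors Grainyhead-like (AACCGGTT) and AP-2 (GCCNNNGGC) and for the metal response element read by the zinc sensor Mtf1 (TGCACNC or TGCGCNC). The AP-2 and Grainyhead-like letters read the same on both strands, and no printed match overlaps another. Capitals mark matches on either strand, and all 5 stretches are from the plus strand, on which these genes lie.
Slc39a8, higher in SE, chr3:135825597-135825656, TGCACNC on the minus strand: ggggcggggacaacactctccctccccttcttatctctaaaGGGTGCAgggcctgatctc
Slc30a2, higher in SE, chr4:134343216-134343275, TGCGCNC on the minus strand: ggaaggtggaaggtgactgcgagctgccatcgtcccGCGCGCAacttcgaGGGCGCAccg
Slc41a3, higher in SE, chr6:90618996-90619055, the AP-2 letters and then TGCACNC on the minus strand: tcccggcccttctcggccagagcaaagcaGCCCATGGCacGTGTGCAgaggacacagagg
Slc12a7, higher in NE, chr13:73763570-73763629, the AP-2 letters: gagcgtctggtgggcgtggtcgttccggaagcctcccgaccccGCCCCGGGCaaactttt
Slc24a3, higher in NE, chr2:145167595-145167654, TGCACNC and then the AP-2 letters: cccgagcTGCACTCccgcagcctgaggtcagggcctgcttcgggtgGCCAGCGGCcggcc

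The Grainyhead-like letters were in 0 of the 74 carrier windows and in 0.146% of all 32851 windows. The AP-2 letters were in 20 carrier windows (27%, against 16.6% of all windows), TGCACNC in 14 (18.9% against 12.6%) and TGCGCNC in 20 (27% against 15.4%). By gene, 18 of the 58 carriers on file held the AP-2 letters, 14 held TGCACNC and 20 held TGCGCNC. Among carriers that passed, the AP-2 letters were in windows of 1 of 4 SE-higher and 5 of 7 NE-higher genes on file. They lay before the start, after it for Slc30a3 and Slc30a9, or across it for Slc4a2. A metal response element with TGCACNC was found for 2 of those 4 and 1 of those 7, and with TGCGCNC for 1 of 4 and 3 of 7. A match is a description of letters and no evidence of binding.

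Of the 72 carriers, 36 were tested and 14 of them differed between the tissues, 5 higher in SE and 9 higher in NE. Over all 10603 genes tested, 40.3% differed, 18.7% higher in SE and 21.6% higher in NE, so the carriers' shares of 13.9% and 25% were near the background. The carriers higher in SE were the iron exporter Slc40a1, the zinc carriers Slc39a8, Slc30a7 and Slc30a2, and the magnesium carrier Slc41a3. Those higher in NE were the bicarbonate carriers Slc4a8 and Slc4a2, the chloride carriers Slc12a8, Slc12a7 and Slc12a2, the zinc carriers Slc30a3, Slc39a4 and Slc30a9, and the calcium exchanger Slc24a3. Most differences were small. The median fold of the 14 was 1.46, and 12 of them were under 2-fold. A called difference over 2-fold was found for 1 carrier in each direction, against 5.35% (SE) and 3.62% (NE) of all genes.

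The median log2 difference of the tested carriers was -0.03 (-0.02 over all genes), and the median size of the difference was 0.28 (0.23 over all genes). The 2 tissues did not overlap for 18 carriers, 7 higher in SE and 11 higher in NE, against 55.1% of all genes (25% and 30.1%). Of the 36 tested carriers, 27 were detected on all 6 arrays. The 3 SE-higher genes Slc39a8, Slc30a2 and Slc41a3 were detected on no NE array, and 0 of the NE-higher genes were undetected throughout SE. These 3 met the detection filter through the SE arrays alone, which all but set their direction. Their p-values are therefore no separate support for it. For such genes the fold is a lower bound, written "at least", which sets the SE mean against the lowest signal among detected probes on each NE array.

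**Figure D1:**
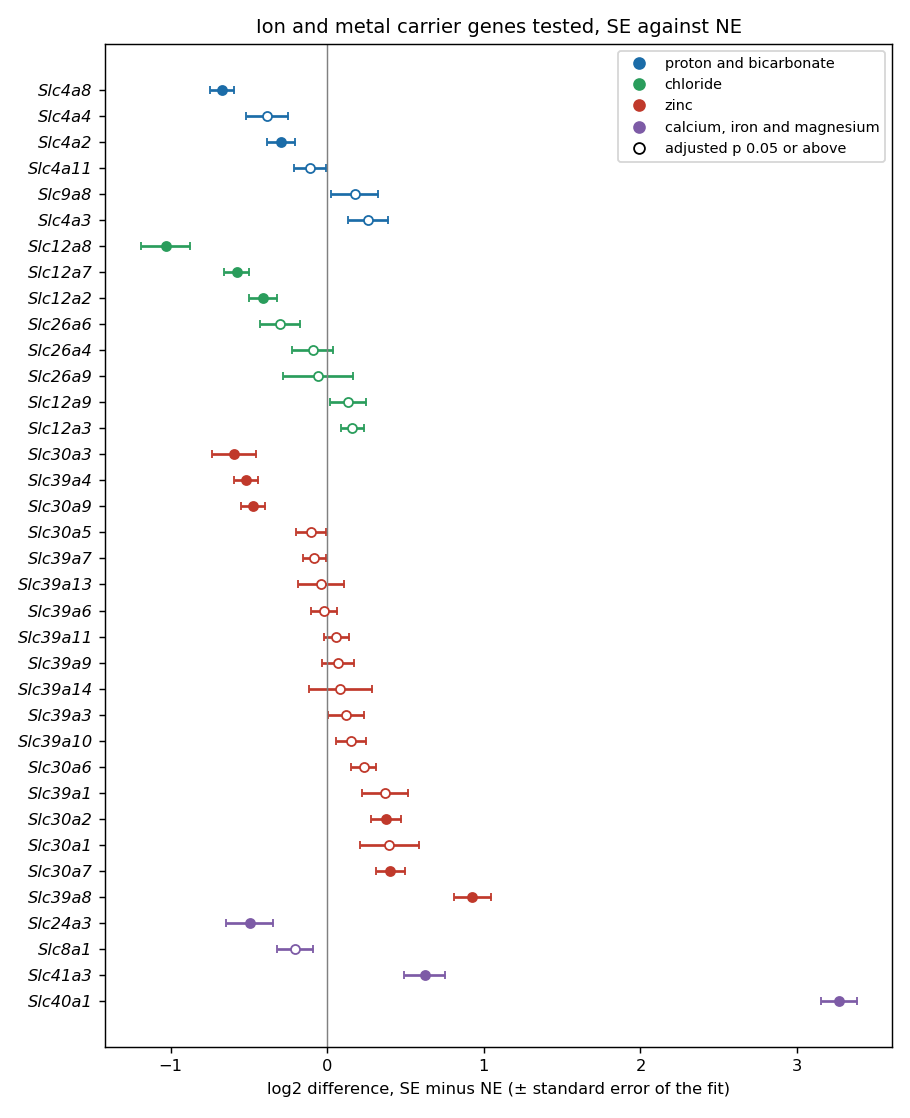
Log2 difference, SE minus NE, of the 36 tested carrier genes (x axis) with the standard error of the fit, coloured by carrier group. Filled points passed an adjusted p under 0.05. Slc40a1 stands alone at 3.27, and the other 35 lie between -1.03 (Slc12a8) and 0.93 (Slc39a8).

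Among the proton and bicarbonate carriers, 6 of 14 were tested. NE was the higher tissue for 2 of them (33.3%, against 21.6% of all genes), SE for 0 (against 18.7%), and 4 missed the threshold. At an unadjusted p under 0.05 limma gave 3 for NE and 0 for SE. With 6 genes tested, this split is no result about the group. Their median log2 difference was -0.20. Slc4a8 exchanges chloride for sodium and bicarbonate and so brings base into the cell. Arrays 1, 2 and 3 of NE gave log2 signals of 6.62, 6.65 and 6.75, and arrays 1, 2 and 3 of SE gave 5.96, 6.03 and 6.02, the order in which values are listed throughout. All 3 NE values lay above all 3 SE values, a 1.59-fold difference (log2 -0.67, standard error 0.075, adjusted p = 3.32e-04). Of its other 2 tested probes, 1 was also higher in NE (log2 -1.33, adjusted p = 1.10e-04) and 1 did not pass (log2 -0.40, adjusted p = 0.0915).

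Slc4a2 is a widely expressed exchanger of chloride for bicarbonate, which lets base out of the cell. It was at 9.41, 9.48 and 9.60 in NE and at 9.23, 9.30 and 9.08 in SE. The tissues did not overlap, but by a narrow gap of 0.11, and the fold was 1.23 higher in NE (log2 -0.29, standard error 0.090, adjusted p = 0.0365). The call for Slc4a2 rested on few arrays. It was lost without NE replicate 2 (adjusted p = 0.0761), NE replicate 3 (0.100), SE replicate 1 (0.0758) or SE replicate 3 (0.110), and with the replicate number as a block (0.0795).

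The other 4 tested members of this group did not pass. The sodium-bicarbonate cotransporter Slc4a4 was at 6.54, 6.07 and 6.15 in NE and 5.94, 5.73 and 5.93 in SE, with no overlap and an adjusted p of 0.0561. It passed under 6 of 16 alternative settings, among them without NE replicate 2 (adjusted p = 0.0404) and with the replicate number as a block (0.0338). The chloride-bicarbonate exchanger Slc4a3 gave a log2 difference of 0.26 (adjusted p = 0.148). Its 4 tested probes differed in call, since 2 of them were higher in SE (log2 0.50 and 0.30, adjusted p = 0.0198 and 0.0451) and 2 did not pass. Without NE replicate 2, the first Slc4a3 probe passed as well (log2 0.39, adjusted p = 0.0204). Slc4a11, known for a role in the cornea, had a log2 difference of -0.11 and Slc9a8, a sodium-proton exchanger of internal membranes, of 0.18. Slc9a8 was the sole tested member of its family, the sodium-proton exchangers. Slc9a2, Slc9a3, Slc9a4, Slc9a5 and Slc9a9 were detected on no array, as were Slc4a9 and Slc4a10, and Slc9a7 was detected on too few.

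Among the chloride carriers, 8 of 18 were tested. NE was the higher tissue for 3 (37.5%, against 21.6% of all genes), SE for 0 (against 18.7%), and 5 missed the threshold. The median log2 difference was -0.20, and with 8 genes tested the split is no result about the group. At an unadjusted p under 0.05 limma gave 4 for NE and 0 for SE. All 3 that differed belonged to Slc12, the family of cation-chloride cotransporters. Slc12a2 (NKCC1) brings sodium, potassium and chloride into the cell. It was at 10.94, 10.96 and 10.88 in NE and at 10.49, 10.67 and 10.39 in SE, 1.33-fold higher in NE without overlap (log2 -0.41, standard error 0.092, adjusted p = 0.0103). Its other tested probe gave the same call (log2 -0.45). Slc12a7 (KCC4) works the other way and lets potassium and chloride out. Its signal was 7.25, 7.29 and 7.40 in NE and 6.78, 6.77 and 6.65 in SE, a 1.49-fold difference with a gap of 0.47 between the tissues (log2 -0.58, standard error 0.080, adjusted p = 0.00105). So a loader and an extruder of chloride were both higher in NE.

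Slc12a8, a divergent member of that family, had the widest difference of the NE-higher carriers by log2. It was at 6.31, 6.89 and 6.64 in NE and at 5.58, 5.75 and 5.42 in SE. The NE pools spread more than the SE pools (SD 0.29 and 0.17, n = 3 each), yet the lowest NE value was 0.56 above the highest SE value, and the gene was 2.05-fold higher in NE (adjusted p = 0.00166). The remaining Slc12 members that were tested did not pass. Slc12a3, the thiazide-sensitive sodium-chloride cotransporter of the kidney, was at 9.03, 8.93 and 9.0 in NE and 9.11, 9.18 and 9.15 in SE, which did not overlap but differed by 0.16 only (adjusted p = 0.118). Slc12a9 had a log2 difference of 0.13 (adjusted p = 0.403).

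The Slc26 anion exchangers gave no call. Slc26a6, an exchanger of many anions, had a log2 difference of -0.30 (adjusted p = 0.105), pendrin (Slc26a4), an iodide and bicarbonate exchanger of thyroid and inner ear, -0.09 and Slc26a9, a chloride channel of airway and stomach, -0.06. Slc26a9 varied more within SE (4.87, 4.47 and 5.40) than between the tissues. Slc26a1, Slc26a2, Slc26a3, Slc26a5, Slc26a7 and Slc26a11 were detected on no array, as was Slc12a5, the chloride extruder of mature neurons. Slc12a1, Slc12a4 and Slc26a10 were detected on 1 or 2 arrays.

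None of the 5 phosphate carriers passed the filter on detection. Slc20a1 and Slc20a2 are the housekeeping sodium-phosphate importers, and the Slc34 genes serve kidney and gut. Slc34a2 and Slc34a3 were detected on no array, Slc20a1 and Slc34a1 on 1 array, and Slc20a2 on 2 arrays, both from NE. The log2 signal of Slc20a2 was 4.74, 4.90 and 5.25 in NE and 4.54, 4.57 and 4.33 in SE. The tissues did not overlap, with a gap of 0.17. When all 5 were fitted without the filter, limma called 0 in either direction, with 1 at an unadjusted p under 0.05 (Slc20a2, log2 -0.48, adjusted p = 0.0675). A low signal of a probe does not show that the gene is silent.

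**Figure D2:**
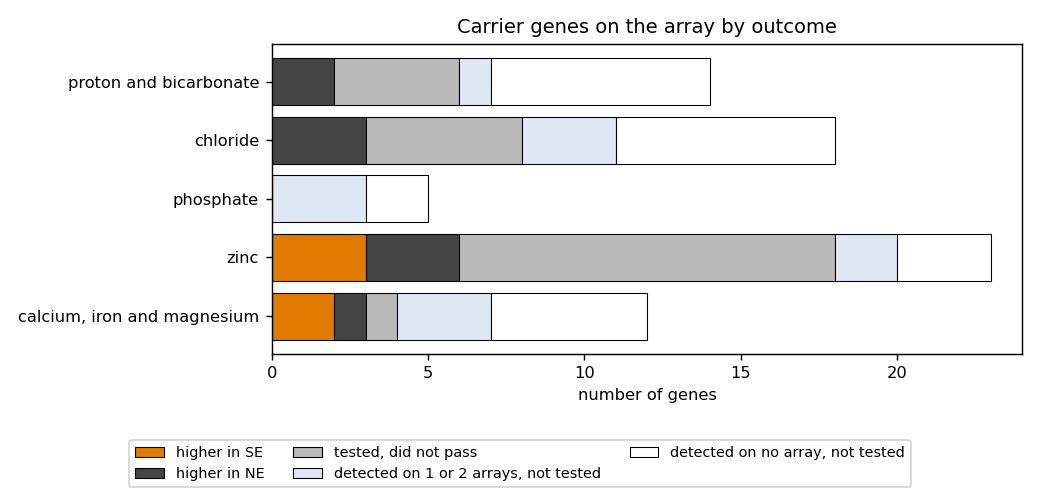
Number of carrier genes on the array (x axis) in each group, split by outcome of the test of SE against NE. Zinc carriers were tested for 18 of 23 genes, while 6 of 14 proton and bicarbonate carriers and 0 of 5 phosphate carriers were tested.

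The zinc carriers made up the largest group, with 18 of 23 tested. SE was the higher tissue for 3 and NE for another 3, and 12 missed the threshold. The share of 16.7% in each direction was near the 18.7% (SE) and 21.6% (NE) of all genes. The median log2 difference of the zinc carriers was 0.08. The opposed families both held calls in both directions. The 7 tested Slc30 genes gave 2 calls towards SE and 2 towards NE, and the 11 tested Slc39 genes gave 1 call in each direction.

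Slc39a8 (ZIP8), which takes up zinc, manganese and cadmium, had the widest difference of the zinc carriers. Its log2 signal was 4.78, 4.65 and 4.58 in NE, where no array detected it, and 5.42, 5.53 and 5.83 in SE, where every array did. The gap between the tissues was 0.65, and Slc39a8 was at least 1.74-fold higher in SE (log2 0.93, adjusted p = 6.91e-04). It entered the test through its SE arrays alone, which all but set the direction of this call. Another Slc39a8 probe was detected on no array, with a mean of 4.24 in NE and 4.23 in SE. Slc39a4 (ZIP4), the main zinc importer of the gut, ran in the other direction, at 6.35, 6.27 and 6.30 in NE and 5.80, 5.71 and 5.86 in SE. The values were tight within each tissue (SD 0.041 and 0.073, n = 3 each) and the gene was 1.43-fold higher in NE (adjusted p = 0.00139).

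The exporters that were higher in SE act inside the cell, as do those higher in NE, named below. Slc30a7 (ZnT7) loads zinc into the Golgi, and it was at 8.14, 8.03 and 7.92 in NE and 8.5, 8.49 and 8.30 in SE. It was 1.32-fold higher in SE without overlap (log2 0.40, standard error 0.094, adjusted p = 0.0121), and its other tested probe gave the same call (log2 0.44, adjusted p = 0.0041). Slc30a2 (ZnT2) fills secretory vesicles and is known from the mammary gland. It lay near the detection limit, at 4.58, 4.76 and 4.47 in NE with no array detecting it, and at 4.97, 5.05 and 4.91 in SE. Slc30a2 too entered the test through SE alone. It was at least 1.13-fold higher in SE (adjusted p = 0.0183), and the call was lost without NE replicate 1 (adjusted p = 0.0526) or NE replicate 3 (0.0555).

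The exporters higher in NE were Slc30a3 and Slc30a9. Slc30a3 (ZnT3) is the zinc loader of synaptic vesicles in the adult brain. It was at 6.09, 6.52 and 6.02 in NE and 5.70, 5.61 and 5.52 in SE, and NE replicate 2 stood above its fellows (NE SD 0.28, n = 3). The tissues did not overlap and Slc30a3 was 1.51-fold higher in NE (log2 -0.60, adjusted p = 0.0119). Slc30a9, the mitochondrial member, was at 5.84, 5.90 and 5.99 in NE and 5.48, 5.37 and 5.45 in SE, a 1.39-fold difference (adjusted p = 0.00252).

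The 12 zinc carriers that did not pass lay between -0.10 and 0.40 in log2 difference. Slc30a1, the exporter of the plasma membrane, had a log2 difference of 0.40 with overlapping tissues (6.58, 6.01 and 6.73 in NE, 6.64, 6.89 and 6.98 in SE, adjusted p = 0.136). The importer Slc39a1 gave 0.37 (adjusted p = 0.0837), and passed without NE replicate 2 (0.0498) and with the replicate number as a block (0.0209). Slc30a6, which with Slc30a5 loads zinc into the secretory pathway, gave 0.23 without overlap (adjusted p = 0.0542). It passed under 5 of 16 alternative settings. Slc30a5 gave -0.10. The importer Slc39a6, known in zebrafish for a role in cell movement at gastrulation, gave -0.02, and its relative Slc39a10 gave 0.15. The differences of Slc39a3, Slc39a9, Slc39a11, Slc39a13 and Slc39a14 were 0.12, 0.07, 0.06, -0.04 and 0.08.

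The probes of Slc39a7 (ZIP7), which releases zinc from the endoplasmic reticulum, did not give a single answer. Its brightest probe was at 10.61, 10.57 and 10.69 in NE and 10.53, 10.55 and 10.53 in SE (log2 -0.08, adjusted p = 0.403). A second Slc39a7 probe gave 0.13 without a call, and the third was higher in SE (log2 0.53, adjusted p = 0.0114). Over all carriers, 9 genes had several tested probes and 27 had 1. The probes differed in call for 3 of the 9 (Slc4a3, Slc4a8 and Slc39a7), and for 0 of the 9 were calls opposite. Among called genes with 1 tested probe, Slc12a7, Slc30a3, Slc30a9, Slc39a4, Slc39a8, Slc40a1 and Slc41a3 also had probes that too few arrays detected. Slc30a10, Slc30a8 (the zinc loader of insulin granules) and Slc39a12 were detected on no array, and Slc30a4 and Slc39a5 on 1 or 2.

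**Figure D3:**
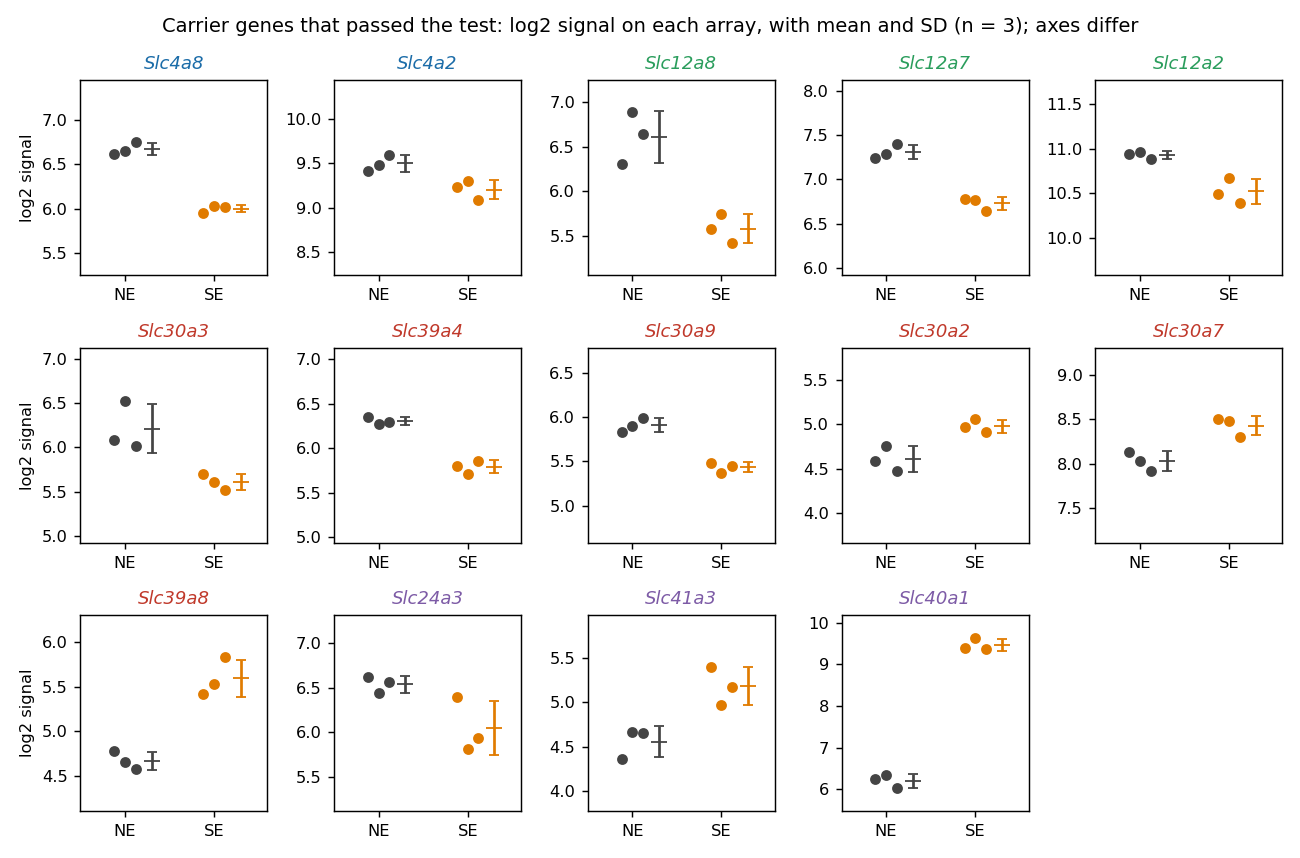
Log2 signal (y axis) of the 14 carriers that passed the test on each of the 3 NE and 3 SE arrays, with the mean and SD; each panel has its own range, which is wider for Slc40a1. In all 14 panels the tissues do not overlap, with the narrowest gap, 0.05, for Slc24a3. Choosing genes by a test on these same values favours this, and 55.1% of all tested genes do not overlap.

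Of the 12 carriers of calcium, iron or magnesium, 4 were tested. SE was the higher tissue for 2 (50%, against 18.7% of all genes) and NE for 1 (25%, against 21.6%), and 1 missed the threshold. With 4 genes tested, these shares are no result about the group. Slc40a1 (ferroportin), the exporter through which cells release iron, had the largest difference of all 36 carriers tested. Its log2 signal was 6.25, 6.33 and 6.02 in NE and 9.40, 9.63 and 9.37 in SE. The means were 6.20 ± 0.16 and 9.47 ± 0.15 (SD, n = 3 each), a 9.63-fold higher signal in SE (log2 3.27, standard error 0.11, adjusted p = 8.75e-07). The study shows Slc40a1 in a heat map of genes chosen on these same arrays, so its direction is no independent evidence.

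Markers of other cell types moved with Slc40a1, and so did those of surface ectoderm itself. The summed log2 level of the surface ectoderm list was 10.52 to 10.77 in NE and 14.10 to 14.21 in SE. The primitive blood list had 8 genes on the array, of which 5 were tested and all 5 were higher in SE. Its summed log2 level was 11.19, 10.34 and 9.75 on the NE arrays and 12.97, 12.86 and 12.08 on the SE arrays. Gata1, the defining erythroid factor, was detected on no array, Tal1 on 1 SE array and Alas2, the heme synthesis enzyme of red cells, on 2 SE arrays. The red cell exchanger Slc4a1 was also higher in SE, at 6.04, 5.53 and 4.65 in NE and 7.42, 7.56 and 6.95 in SE (log2 1.90, adjusted p = 0.00316).

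The summed level of cephalic mesenchyme markers was 8.70 to 9.11 in NE and 10.71 to 11.23 in SE, with 7 of 7 tested genes higher in SE. That of endothelium markers was 7.45 to 8.22 in NE and 8.18 to 8.62 in SE, with 1 of 3 tested genes higher in SE, and Pecam1 and Tie1 were detected on no array. Within NE the blood sum spanned 1.44 and Slc40a1 spanned 0.32. The part of these cells in the Slc40a1 result was not tested.

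**Figure D4:**
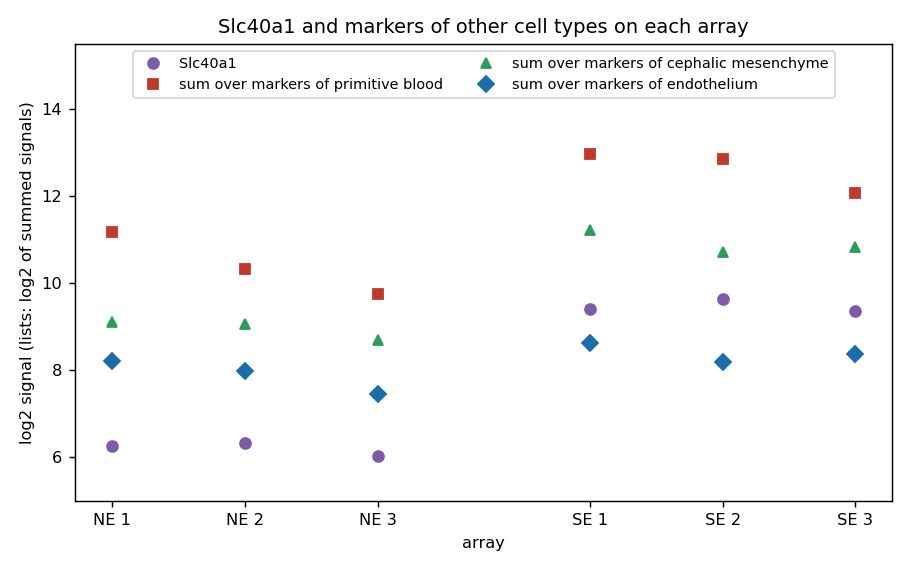
Log2 signal of Slc40a1 and log2 of the summed signals of 3 marker lists (y axis) on each of the 6 arrays (x axis). Slc40a1 lies at 6.02 to 6.33 in NE and 9.37 to 9.63 in SE, and the blood sum at 9.75 to 11.19 and 12.08 to 12.97.

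Slc41a3, a magnesium carrier of mitochondria, was detected on no NE array and on 3 SE arrays, so it entered the test through SE alone. Its log2 signal was 4.36, 4.66 and 4.65 in NE and 5.40, 4.97 and 5.17 in SE. It was at least 1.30-fold higher in SE (log2 0.62, adjusted p = 0.00823). Another Slc41a3 probe was detected on 1 SE array (mean 4.55 in NE and 4.62 in SE), and a further probe on no array. Slc24a3, which exchanges calcium and potassium for sodium, was at 6.62, 6.44 and 6.56 in NE and 6.39, 5.81 and 5.94 in SE. Slc24a3 was 1.41-fold higher in NE (log2 -0.49, standard error 0.15, adjusted p = 0.0349), but SE replicate 1 came within 0.05 of the lowest NE value. The call was lost without NE replicate 1 (adjusted p = 0.0949), 2 (0.0536) or 3 (0.0835) and without SE replicate 2 (0.105) or 3 (0.112), and kept without SE replicate 1 alone (0.0033).

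The sodium-calcium exchanger Slc8a1, known for its role in the heart, did not pass (log2 -0.21, adjusted p = 0.191), though it did without SE replicate 2 (log2 -0.32, adjusted p = 0.0411). Slc8a2, Slc8a3, Slc24a4, Slc41a1 and Slc41a2 were detected on no array. Slc24a1, Slc24a2 and Slc24a5, the latter known from pigment cells, were detected on 1 array each.

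The enzymes, pumps and regulators that work with these carriers were read from lists grouped by ion. Of 30 tested acid-base partners, 9 had more signal in SE, 6 had more in NE and 15 missed the threshold. The background for this and the lists that follow is the 18.7% of all genes higher in SE and the 21.6% higher in NE, and the NE-higher share here was near it. Carbonic anhydrases turn carbon dioxide into bicarbonate and a proton. Car2, the fast cytosolic form, lay between 7.73 and 8.0 in NE and between 9.93 and 10.15 in SE, 4.58-fold higher in SE. The membrane-bound Car14 (1.81-fold) and Car4 (1.46-fold) were also higher in SE, whereas Car12 (1.51-fold) and Car13 (1.36-fold) were higher in NE. Car10, a relative without enzyme activity, had an NE signal at least 2.20-fold above that in SE. The scaffolds that hold sodium-proton exchangers at the cell surface were higher in SE, at 1.79-fold for Slc9a3r1 and 2.18-fold for Slc9a3r2, while Slc9a3 itself was detected on no array.

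The proton pump that acidifies vesicles split in its calls. Its subunits Atp6v0e (1.35-fold) and Atp6v1g1 (1.28-fold) and its accessory protein Atp6ap1 (1.70-fold) were higher in SE. Atp6v1b2 (1.79-fold), Atp6v0e2 (1.69-fold) and Atp6v1a (1.22-fold) were higher in NE. The accessory protein Atp6ap2 did not pass by its brightest probe (log2 0.14, adjusted p = 0.206), while its other 3 probes were higher in SE, by up to 0.56. Chp1, a cofactor of sodium-proton exchangers, was 1.46-fold higher in SE.

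Of 6 tested genes of the sodium-potassium pump, which builds the gradients the carriers use, 1 had more signal in SE, 2 had more in NE and 3 missed the threshold. Its regulator Fxyd3 was at least 2.71-fold higher in SE, its beta subunit Atp1b2 at least 1.45-fold higher in NE and Fxyd6 1.35-fold higher in NE. The 6 tested chloride partners split into 1 with more signal in SE, 3 with more in NE and 2 that missed the threshold. The Wnk kinases switch Slc12 carriers through Stk39 and its partner Oxsr1. Wnk1 was at 9.98, 9.75 and 9.89 in NE and 9.29, 9.38 and 9.27 in SE, 1.48-fold higher in NE, and Wnk4 was 1.56-fold higher in NE. Stk39 was 1.62-fold higher in SE and Cab39l, from a family that activates it, 1.22-fold higher in NE.

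Of 5 tested phosphate partners, 4 had more signal in NE, 0 had more in SE and 1 missed the threshold, with 4 and 0 by limma at an unadjusted p under 0.05. All genes gave 21.6% and 18.7%. Ank, known for its part in pyrophosphate release, was at 8.29, 8.36 and 8.47 in NE and 6.82, 6.93 and 6.76 in SE, 2.90-fold higher in NE. The phosphatase Alpl was 2.04-fold, the receptor Fgfr1 1.66-fold and the phosphate exporter Xpr1 1.45-fold higher in NE. The second Fgfr1 probe did not pass.

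Of 5 tested zinc partners, 2 had more signal in SE, 1 had more in NE and 2 missed the threshold. The metallothioneins Mt1 and Mt2 bind zinc and copper in the cytosol. Mt1 was at 12.14, 11.79 and 11.66 in NE and 13.51, 13.41 and 13.48 in SE, 3.03-fold higher in SE. Mt2 was at 4.86, 4.47 and 4.62 in NE, with detection on 1 NE array, and 6.39, 6.47 and 6.39 in SE, 3.39-fold higher. Mt3, the brain form, was at least 1.11-fold higher in NE. Mtf1, the zinc sensor that switches metallothionein genes, had a log2 difference of -0.07 at its brightest probe and did not pass, while another of its probes was higher in NE (log2 -0.44).

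Of 11 tested iron partners, 1 had more signal in SE, 2 had more in NE and 8 missed the threshold. The transferrin receptor Tfrc, which takes iron in, was at 11.37, 11.12 and 11.43 in NE and 10.51, 10.50 and 10.38 in SE, 1.80-fold higher in NE by both of its probes. The iron exporter Slc40a1 and the iron importer Tfrc thus differed in opposite directions. The iron sensor Ireb2 was 1.32-fold higher in NE by its brightest probe, with a second probe at 0.04, and the storage protein Ftl1 was 1.19-fold higher in SE. Of 6 tested calcium pumps, the Golgi pump Atp2c1 was 1.39-fold higher in SE and Atp2a3 of the endoplasmic reticulum 2.03-fold higher in NE, and 4 did not pass. Among these, Atp2a2 had 1 of 3 probes higher in NE (adjusted p = 0.0433). Heph, an iron oxidase that did not pass by its brightest probe, had 1 of 4 higher in SE (adjusted p = 0.0248). Of 4 tested magnesium partners, Cnnm2 was 1.34-fold higher in NE and 3 did not pass. Adjusted p-values of the called partners were 0.0399 or less.

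**Figure D5:**
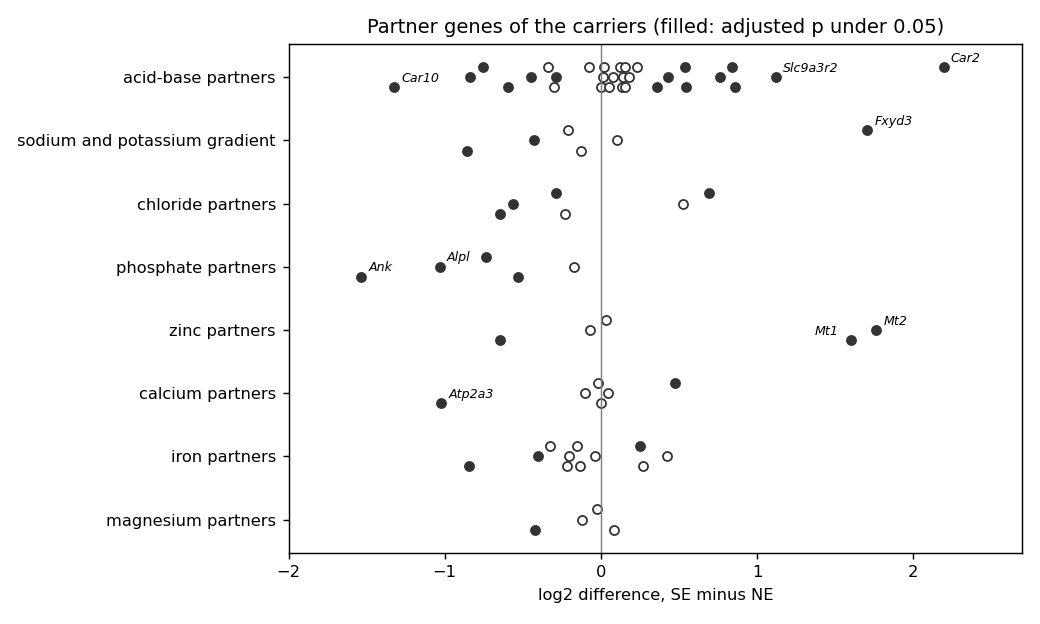
Log2 difference, SE minus NE (x axis), of the tested partner genes, 1 row of points for each list; filled points passed an adjusted p under 0.05. Car2, Mt2, Fxyd3 and Mt1 lie farthest to the SE side, and Ank and Car10 farthest to the NE side.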

How the data were processed

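Total RNA of 3 SE and 3 NE pools was amplified, labelled with biotin and hybridised to single-colour Illumina MouseWG-6 v2 arrays. The authors' software was BeadStudio (version not stated). For each of 45281 probes, the deposited unnormalised table gives a linear signal intensity and, from negative control probes, a detection p-value. The deposited scaled intensity values equal these signals times 1 constant per array (0.966 to 1.07), which gives a mean of 420.0 on every array and medians of 61.7 to 69.2, with no centring. Bead numbers were not used, and precision is limited by the number of arrays. Groups came from the sample labels.

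With limma 3.58.1 in R 4.3.3, neqc (normexp background from the detection p-values, offset 16, then quantiles) gave log2 values. A probe was kept if 3 or more arrays had a detection p under 0.05. Kept probes were fitted (lmFit, eBayes) for SE minus NE without a block, with p-values adjusted by Benjamini and Hochberg over 19590 probes. All adjusted p-values are limma's. The fit was tested on simulated data. Gene names came from the platform annotation (34885 probes with 1 symbol, 18 with several, 10378 with none, 2956 tested probes unnamed), and 34807 matched by Entrez identifier. All 72 carriers matched the RefSeq table. The members, lists, tests and naming rule were chosen with earlier results of these data known. The rule gives every carrier that passed (up to 6 per group and direction with array values), names the rest, and always gives Slc40a1; partners with array values were picked afterwards. Alternatives were other background, scaling, filter, probe, variance and block settings and leaving out each array. No protein or probe sequences were used. Plots were drawn with matplotlib 3.10.9.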

Additional observations from a re-analysis of the deposited data

How the results depend on the processing

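Under 16 alternatives, 8 of the 14 called carriers kept their call and direction wherever they could be tested, and 6 lost the call at least once (Slc4a2 and Slc24a3 in 7 each, Slc30a2 in 5 of 11, and Slc30a3, Slc30a7 and Slc41a3 in 1 each). A call was gained at least once by 7 carriers that had none. Slc39a7 turned to 0.53 (adjusted p = 0.0114) with the probe of lowest p, a different probe.

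SE-higher carriers went from 5 to 3 when detection on all 6 arrays was required, since Slc39a8, Slc30a2 and Slc41a3 were then not tested and Slc30a6 gained a call. With this filter, with detection p under 0.01 and without variance moderation, 1 of 2 SE-higher calcium, iron and magnesium carriers was left. NE-higher carriers of that group went from 1 to 0, and proton and bicarbonate carriers from 2 to 1, with no detection filter and without variance moderation. SE-higher proton and bicarbonate carriers went from 0 to 1 with the probe of lowest p, and chloride carriers from 0 to 1 without variance moderation. The carriers behind these changes were Slc41a3, Slc24a3, Slc4a2, Slc4a3 and Slc12a3, in that order. Slc41a3 was not tested under the stricter detection filters and lost its call without variance moderation. The SE share of calls was 35.7%, 23.1% with all 6 arrays required and 26.7% (4 of 15) with arrays centred on the median, where the median of all probes moved to -0.09.

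Leaving out 1 array gave 2 to 7 SE-higher and 7 to 9 NE-higher carriers. Without SE replicate 1, 2 or 3, 2 SE-higher carriers were left each time, because Slc39a8, Slc30a2 and Slc41a3 were then detected on 2 arrays and not tested, and without NE replicate 2 there were 7. By group the ranges were 0 to 1 (SE) and 1 to 2 (NE) for proton and bicarbonate, 1 to 4 (SE) for zinc, and 1 to 2 (SE) and 0 to 1 (NE) for calcium, iron and magnesium. Chloride carriers stayed at 0 SE and 3 NE, and zinc at 3 NE.

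The methods compare SE with NE within each replicate but name no litter or day shared under a number. Samples of equal number did not deviate together (correlations of -0.04, -0.03 and -0.02). These values and the block both use the labels' numbers, which are in doubt for NE replicates 2 and 3. With the replicate number as a block, 6 carriers were higher in SE and 9 in NE; Slc4a2 lost its call (adjusted p = 0.0795), and Slc4a4 (0.0338) and Slc39a1 (0.0209) gained one. Low signal limits the zinc, magnesium and phosphate carriers near background.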
